A study of Homo sapiens with 12 samples.

Results

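This report describes 9 genes that regulate the tumour suppressor p53 or are switched on by it, MDM2, MDM4, CDKN1A, ZMAT3, EDA2R, SESN1, FDXR, RRM2B and TP53INP1, in RNA-sequencing counts of venetoclax-parental and venetoclax-resistant lymphoma cells. They were chosen by symbol from general knowledge of the pathway, and each matched 1 of the 60675 Ensembl identifiers counted. SUDHL6 and SUDHL16 are human cell lines of diffuse large B-cell lymphoma (DLBCL), an aggressive cancer of B cells. There were 4 groups of 3 libraries each, 12 in total: SUDHL6-parental (CE-7, CE-8 and CE-9), SUDHL6-resistant (CE-10, CE-11 and CE-12), SUDHL16-parental (CE-25, CE-26 and CE-27) and SUDHL16-resistant (CE-28, CE-29 and CE-30). Each resistant line was derived from its parental line by long exposure to rising doses of venetoclax, an inhibitor of the survival protein BCL2, until it grew at 10 times the original IC50, the usual measure of the dose at which a drug inhibits cells. There was 1 resistant line from each parental line. The study describes the p53 gene as mutated in both parental lines, with no further mutation of it in the resistant lines, so parental and resistant cells share an altered p53. Nothing in the labels ties a library to a culture of its own, so the p-values measure the spread between these libraries, which may be technical.

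In a normal cell p53 is made continuously and destroyed continuously, because MDM2 marks it for degradation and MDM4 covers the part of it that activates genes. DNA damage or oncogene activity releases p53 from both proteins, and p53 then binds paired sequence elements in its target genes and raises their transcription, which stops the cell cycle, repairs DNA, alters metabolism or kills the cell. MDM2 is itself such a target, which closes a feedback loop, and in B-cell lymphoma this pathway is one of the routes by which genotoxic therapy acts.

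Total counts ran from 33992784 to 40885665 in the SUDHL6 libraries and from 4131927 to 22068221 in the SUDHL16 libraries. CE-26, a SUDHL16-parental library, had the lowest total and stood apart, with 55.4% of its counts on protein-coding genes against 84.3% to 90.2% in the remaining SUDHL16 libraries, and it held counts on 34938 identifiers where those held counts on 20896 to 24655. The biological coefficient of variation between libraries was 0.0516 in SUDHL6 and 0.468 in SUDHL16, or 0.339 without CE-26, so that SUDHL16 resolved only larger changes, and the SUDHL16 results of the 9 genes are therefore also given without that library. Levels are in CPM, the counts on a gene relative to the size of its library, with library sizes scaled by TMM within a line. All 8 B cell markers examined had counts in every library, and their summed level was 2834 CPM in CE-26, at most 4324 CPM in the other SUDHL16-parental libraries, 4406 to 4472 CPM in the SUDHL16-resistant and 4237 to 4471 CPM in the SUDHL6 libraries.

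Sequences that match the p53 consensus were sought first, to show where such matches lie in these genes. The p53 consensus response element is a pair of decamers of 10 bases, each with a core of C and G around a pair of A or T. Adjoining decamers with at most 2 mismatches to the consensus and an intact C and G in each core were found within 3000 bases of the canonical gene start in 5 of the 9 genes. The element reads the same on either strand, so both strands were covered by 1 search. Of all 20033 protein-coding genes 4.64% had such a match in a window of the same length, and of 44 other p53 target genes 34.1% did. Since these genes are known as targets partly through their elements, the share is a description. The matches in 4 genes run along the strand of the gene, with the core of each decamer in capitals (GRCh38).
MDM2, chr12:68808923-68808942, 746 bases downstream of the gene start in an intron, 2 mismatches: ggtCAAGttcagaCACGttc
CDKN1A, chr6:36676449-36676468, 2265 bases upstream at the first exon of another transcript, 2 mismatches: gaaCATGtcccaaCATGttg
ZMAT3, chr3:179070188-179070207, 1602 bases downstream in an intron, 0 mismatches: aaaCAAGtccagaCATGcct
EDA2R, chrX:66638713-66638732, 346 bases downstream in an intron, 1 mismatch: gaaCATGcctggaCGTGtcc
EDA2R, chrX:66638563-66638582, 496 bases downstream in an intron, 2 mismatches: gggCAAGtcagggCTTGtgt

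RRM2B had a match with 1 mismatch 2102 bases downstream of its start, and MDM4, SESN1, FDXR and TP53INP1 had none in this window under this rule. EDA2R was the only one of the 9 genes with a pair of matches. A match is a string of letters and was not measured as a binding site here.

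**Figure D1:**
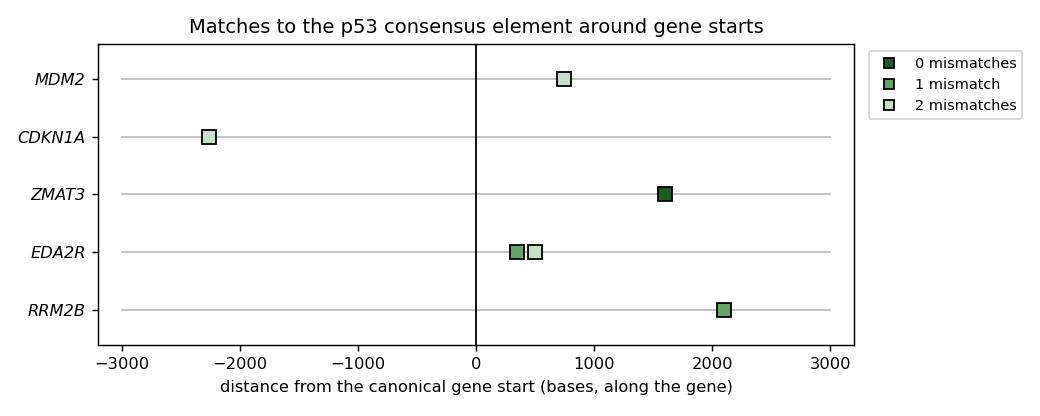
Position of each match to the p53 consensus element (squares, shaded by the number of mismatches) relative to the canonical gene start at 0, in bases along the gene, for the 5 genes with a match. Matches lie from 2265 bases upstream in CDKN1A to 2102 bases downstream in RRM2B, and EDA2R has a pair of them 346 and 496 bases downstream.

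The comparison of resistant with parental cells asked whether the p53 response differed once venetoclax resistance had been acquired. In SUDHL6 the targets did not move as a block: CDKN1A was higher in the resistant line, ZMAT3, SESN1 and FDXR were lower, all by less than 1.5-fold, and MDM2, MDM4, RRM2B and TP53INP1 did not pass the test. In SUDHL16 EDA2R was detected in every parental library and in no resistant library. The other 8 genes did not pass the test in SUDHL16 with all 6 libraries, and without CE-26 ZMAT3 was lower and FDXR higher. A gene was said to be called when it changed at least 1.5-fold with an adjusted p under 0.05 in edgeR's quasi-likelihood test, the adjustment being that of Benjamini-Hochberg over all genes tested in the line. In SUDHL6 0 of the 8 genes tested were called by edgeR, and 0 by DESeq2 or limma voom, beside 8.96% of 16662 genes called by edgeR. An adjusted p under 0.05 was found for 4, beside 37.3% of all genes, and an unadjusted p under 0.05 for 5, beside 45.2%. In SUDHL16 1 of 9 was called, EDA2R, beside 5.3% of 15708 genes, and 2, EDA2R and ZMAT3, had an unadjusted p under 0.05, beside 19.1%. The groups did not overlap for 5 of the 8 genes in SUDHL6, beside 47.9% of all genes, and for 3 of the 9 in SUDHL16, beside 26.6%. EDA2R was the member that fell under the filter on low counts in SUDHL6, and in SUDHL16 it passed that filter through the parental libraries alone, so its call adds nothing to its counts.

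**Figure D2:**
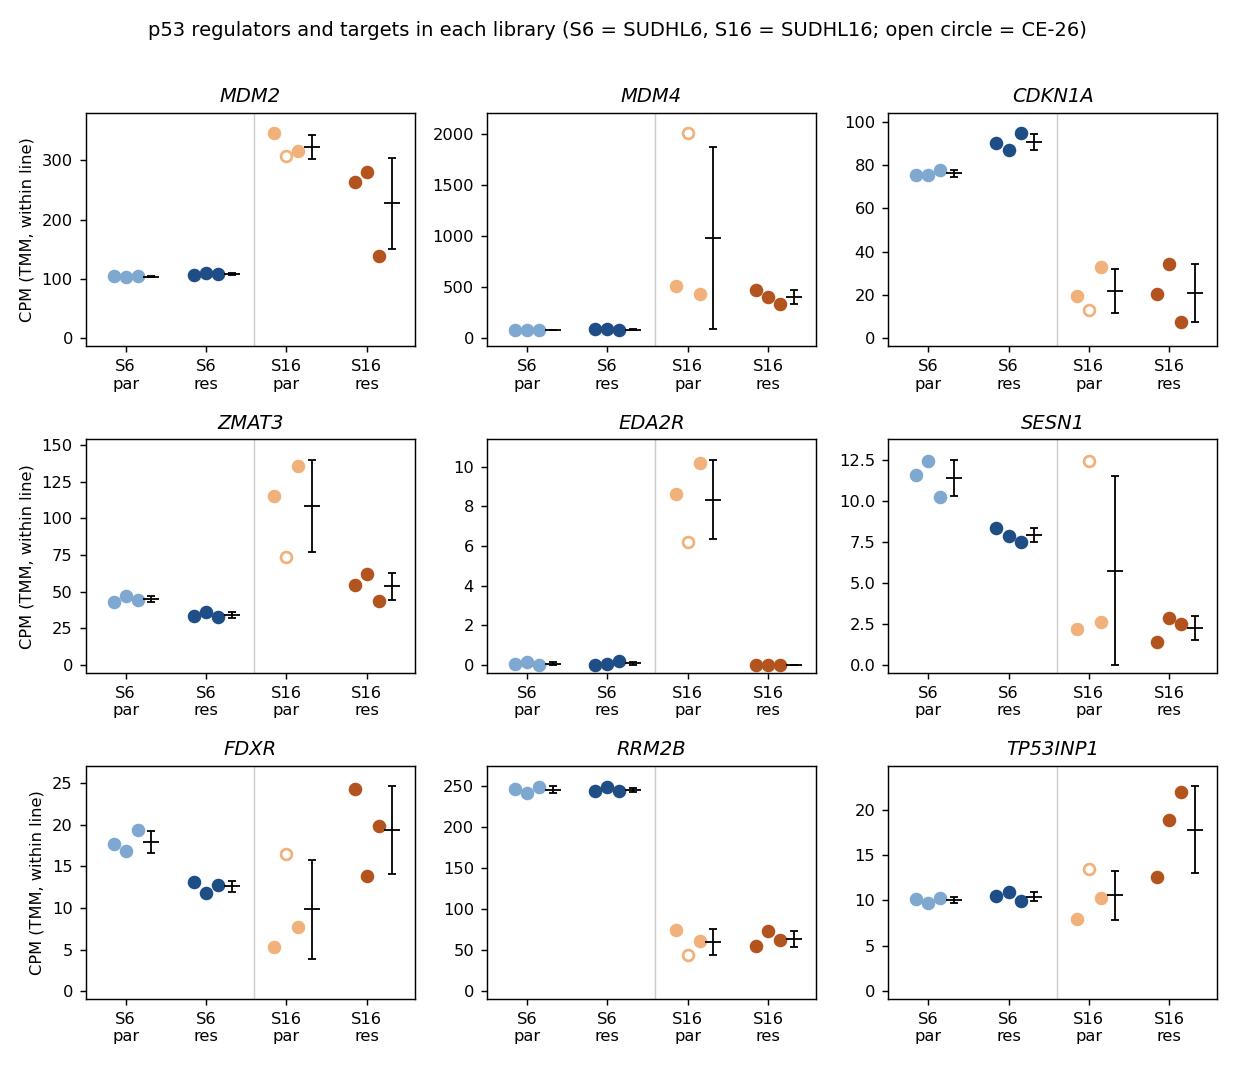
CPM of each gene in each library (circles) with the mean and SD of each group of 3 libraries beside them, for SUDHL6 (S6) and SUDHL16 (S16), parental (par) and resistant (res), with an open circle for CE-26. EDA2R lies at 0 in all 3 SUDHL16-resistant libraries, and CE-26 is far above its group for MDM4 (2004 CPM) and SESN1 (12.4 CPM).

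MDM2 encodes the ubiquitin ligase that sends p53 to the proteasome, and lies at chr12:68808177-68845544 on the plus strand. In SUDHL6 its level was 104, 103 and 105 CPM in the parental libraries and 107, 111 and 108 CPM in the resistant ones. The resistant libraries were all slightly above the parental ones without overlap. On the log2 scale the fold change, resistant minus parental, was 0.062 ± 0.025 (SE, n = 3 per group), with an edgeR adjusted p of 0.0763, and the gene passed under upper-quartile scaling (adjusted p = 0.0296) and with library totals (adjusted p = 0.0442), still at a change far below 1.5-fold. In SUDHL16 MDM2 was at 345, 307 and 315 CPM in the parental libraries and at 264, 280 and 139 CPM in the resistant ones. Every resistant library was below every parental one, and CE-30 was well below the other two. A log2 fold change of -0.50 ± 0.32 did not pass in edgeR (adjusted p = 0.447), nor without CE-26 (-0.53, adjusted p = 0.360).

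MDM4, at chr1:204516379-204558120 on the plus strand, is the relative of MDM2 that blocks the activating region of p53. Its SUDHL6 levels were 85.1, 84.6 and 83.6 CPM in the parental libraries and 86.4, 88.0 and 80.5 CPM in the resistant ones, so the groups overlapped. Their log2 fold change was 0.011 ± 0.034, with an edgeR adjusted p of 0.843. In SUDHL16 the parental libraries had 507, 2004 and 432 CPM and the resistant libraries 470, 401 and 338 CPM. CE-26 alone held the high value, and the remaining parental libraries overlapped the resistant ones. With CE-26 the log2 fold change of -1.28 ± 0.58 did not pass in edgeR (adjusted p = 0.278) and was -0.21 ± 0.23 (adjusted p = 0.672) without CE-26.

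Among the target genes that stop the cell cycle, CDKN1A encodes p21, the inhibitor of cyclin-dependent kinases through which p53 halts division. The gene lies at chr6:36676460-36687337 on the plus strand. In SUDHL6 it was at 75.2, 75.4 and 77.9 CPM in the parental libraries and at 90.1, 87.1 and 94.6 CPM in the resistant ones. All resistant libraries were above all parental libraries. CDKN1A rose by 18.8%, a log2 fold change of 0.25 ± 0.033 with an edgeR adjusted p of 7.13e-05, which was under the 1.5-fold limit. In SUDHL16 it was at 19.5, 13.1 and 33.1 CPM in the parental libraries and at 20.6, 34.5 and 7.74 CPM in the resistant ones. Both groups spread widely and overlapped. Between them the log2 fold change was -0.08 ± 0.54, with an edgeR adjusted p of 0.956, a value so close to 0 that its sign turned with no filter on low counts (0.0039), and it was -0.32 ± 0.53 (adjusted p = 0.791) without CE-26. DINOL, a long noncoding RNA gene, overlaps CDKN1A on the opposite strand, and as the strand setting of the counting is not given in the sources used here, reads of the pair may be mixed.

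ZMAT3, at chr3:178960121-179072215 on the minus strand, encodes a zinc finger protein that binds RNA and acts in the tumour-suppressive branch of the response. In SUDHL6 the parental libraries had 42.9, 46.9 and 44.4 CPM and the resistant ones 33.6, 36.2 and 32.4 CPM. The groups were clearly apart, with the resistant libraries lower. ZMAT3 fell by 23.8% (log2 fold change -0.39 ± 0.051, edgeR adjusted p = 5.46e-05). The parental SUDHL16 libraries had 116, 73.7 and 136 CPM and the resistant ones 54.8, 62.1 and 43.6 CPM. Here too no library of one group reached the other, and CE-26 was the lowest of the parental libraries. A log2 fold change of -1.02 ± 0.29 missed the threshold in edgeR (adjusted p = 0.0834) with all 6 libraries. It was -1.22 ± 0.23 with an adjusted p of 0.0120 without CE-26, and the gene was also called by DESeq2 (adjusted p = 0.0114), limma voom with sample quality weights (adjusted p = 0.00314), a single edgeR fit of all 12 libraries (adjusted p = 0.0136), upper-quartile scaling (adjusted p = 0.0479) and a fit of protein-coding genes (adjusted p = 0.0451). ZMAT3 was the only one of the 9 genes whose resistant libraries were all below the parental ones in both lines. Over all genes the groups did not overlap, in either direction, for 47.9% in SUDHL6 and 26.6% in SUDHL16. The share of genes lower without overlap in both lines was not counted.

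EDA2R encodes a receptor of the tumour necrosis factor family that binds ectodysplasin A2 and is a strong target of p53, and it lies at chrX:66595637-66639298 on the minus strand. In SUDHL16 it had 157, 18 and 164 counts in the parental libraries, or 8.65, 6.20 and 10.2 CPM, and 0 counts in each of the 3 resistant libraries. Every parental library was thus above every resistant one, CE-26 included. With a floor of 3 counts per resistant library, the most that a count of 0 allows, the level was at least 53.3-fold lower in the resistant line, or at least 60.1-fold without CE-26. The edgeR adjusted p was 0.00308, and 8.81e-04 without CE-26, but a gene that enters the test through one group alone had to differ, and these values are a description. With no filter on low counts the adjusted p in edgeR was 1.12e-04. In SUDHL6 EDA2R had 2, 4 and 0 counts in the parental libraries and 0, 2 and 6 in the resistant ones, which was at most 0.165 CPM. It was near the limit of detection in both SUDHL6 groups and was not tested there. DCN, a fibroblast marker, moved the same way in SUDHL16. It had 19.7, 25.5 and 19.7 CPM in the parental libraries and 0, 0.235 and 0.425 CPM in the resistant ones. Its edgeR adjusted p was 0.00267, but DCN too passed the filter on low counts through the parental libraries alone. That value adds nothing to its levels and is a description. The summed level of the 6 fibroblast and epithelial markers was 19.7 to 41.3 CPM in the parental and 0 to 0.425 CPM in the resistant libraries. Of the other 5 markers, the fibroblast collagen COL1A1 was at 0 in all 3 parental libraries, COL1A2 was at 0.331, 9.99 and 0 CPM in CE-25, CE-26 and CE-27, and KRT8, KRT18 and EPCAM were above 0 only in CE-26 (2.07, 2.07 and 1.72 CPM). In the resistant libraries COL1A1 was at 0.188 CPM in CE-29, and these 5 markers were otherwise at 0. Among 6 T cell markers CD3E was higher in the resistant libraries (10.8 to 13.4 CPM against 1.16 to 4.48 CPM). CD3G went the other way, with 0.331, 5.51 and 1.06 CPM in the parental and 0, 0.376 and 0.723 CPM in the resistant libraries. CD8A and CD2 were at 4.82 and 1.72 CPM in CE-26 and CD3D at 0.497 CPM in CE-27. These markers were otherwise at most 0.128 CPM in SUDHL16, and CD4 was at most 0.282 CPM. The summed level of the list was 1.6 to 16.5 CPM in the parental libraries, the 16.5 CPM being that of CE-26. It was 11.7 to 14.0 CPM in the resistant libraries, most of it CD3E. The 6 myeloid markers summed to 10.7 CPM in CE-26 and to at most 0.938 CPM in the resistant libraries. The part of other cells in the EDA2R result was not tested. In bulk RNA, fewer cells that express a gene and less RNA per cell cannot be told apart.

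SESN1, at chr6:108984309-109094846 on the minus strand, encodes sestrin 1, which restrains the growth kinase mTORC1 under stress. In SUDHL6 it had 11.5, 12.4 and 10.2 CPM in the parental libraries and 8.35, 7.87 and 7.49 CPM in the resistant ones. The resistant libraries were all lower. SESN1 fell by 30.4% (log2 fold change -0.52 ± 0.092, edgeR adjusted p = 6.13e-04) and reached the 1.5-fold limit only when CE-9 was left out (-0.60, adjusted p = 3.23e-04). In SUDHL16 the parental libraries had 2.2, 12.4 and 2.61 CPM and the resistant libraries 1.41, 2.82 and 2.51 CPM. As for MDM4, the high value was that of CE-26. On the log2 scale SESN1 differed by -1.29 ± 0.79 (edgeR adjusted p = 0.432) with CE-26 and by -0.086 ± 0.53 (adjusted p = 0.947) without it.

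FDXR encodes ferredoxin reductase, which passes electrons to mitochondrial enzymes that make steroids and iron-sulfur clusters, and lies at chr17:74862497-74873031 on the minus strand. The SUDHL6 levels were 17.6, 16.8 and 19.3 CPM in the parental libraries and 13.2, 11.8 and 12.7 CPM in the resistant ones. The groups did not overlap and the resistant line was lower. FDXR fell by 29.9% (log2 fold change -0.51 ± 0.074, edgeR adjusted p = 1.43e-04). In SUDHL16 it had 5.29, 16.5 and 7.70 CPM in the parental libraries and 24.3, 13.8 and 19.8 CPM in the resistant ones. The groups overlapped only through CE-26. With all 6 libraries the log2 difference was 1.02 ± 0.46 (edgeR adjusted p = 0.280), and it was 1.59 ± 0.37 (adjusted p = 0.0309), which is a call, without CE-26. It was also called by limma voom with sample quality weights (1.47, adjusted p = 0.00640) and in the single edgeR fit of all 12 libraries (1.13, adjusted p = 0.0349), and not by DESeq2 (0.99, adjusted p = 0.249).

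RRM2B, at chr8:102204502-102238961 on the minus strand, encodes the p53-inducible small subunit of ribonucleotide reductase, which supplies nucleotides for DNA repair. Its SUDHL6 levels were 246, 242 and 250 CPM in the parental libraries and 244, 249 and 244 CPM in the resistant ones. The groups overlapped, and the log2 fold change of -0.0024 ± 0.021 (edgeR adjusted p = 0.944) changed sign under several settings. In SUDHL16 the parental libraries had 74.5, 44.1 and 61.5 CPM and the resistant libraries 55.0, 73.7 and 62.5 CPM, again with overlap. RRM2B differed by 0.08 ± 0.26 on the log2 scale (edgeR adjusted p = 0.909), and the value was negative without CE-26 (-0.085 ± 0.22), under upper-quartile scaling (-0.0061) and with limma voom (-0.053).

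TP53INP1, at chr8:94925972-94949378 on the minus strand, encodes a stress-induced nuclear protein that acts in p53-dependent cell death and in autophagy. In SUDHL6 it had 10.2, 9.71 and 10.3 CPM in the parental libraries and 10.5, 10.9 and 9.91 CPM in the resistant ones. The groups overlapped (log2 fold change 0.053 ± 0.076, edgeR adjusted p = 0.638). In SUDHL16 it had 7.99, 13.4 and 10.2 CPM in the parental libraries and 12.6, 18.9 and 21.9 CPM in the resistant ones. Only CE-26 reached into the resistant range. TP53INP1 was higher in the resistant line by 0.77 ± 0.35 on the log2 scale without passing in edgeR (adjusted p = 0.282), or by 0.97 ± 0.34 (adjusted p = 0.116) without CE-26, and the gene was called with limma voom (adjusted p = 0.0398) and in the single edgeR fit of 12 libraries (adjusted p = 0.0345). NDUFAF6, which overlaps TP53INP1 on the opposite strand, had the higher count level in every library (15.9 to 43.4 CPM), and whether the counting used strand is not given in the sources used here, so the counts of the pair may be mixed.

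**Figure D3:**
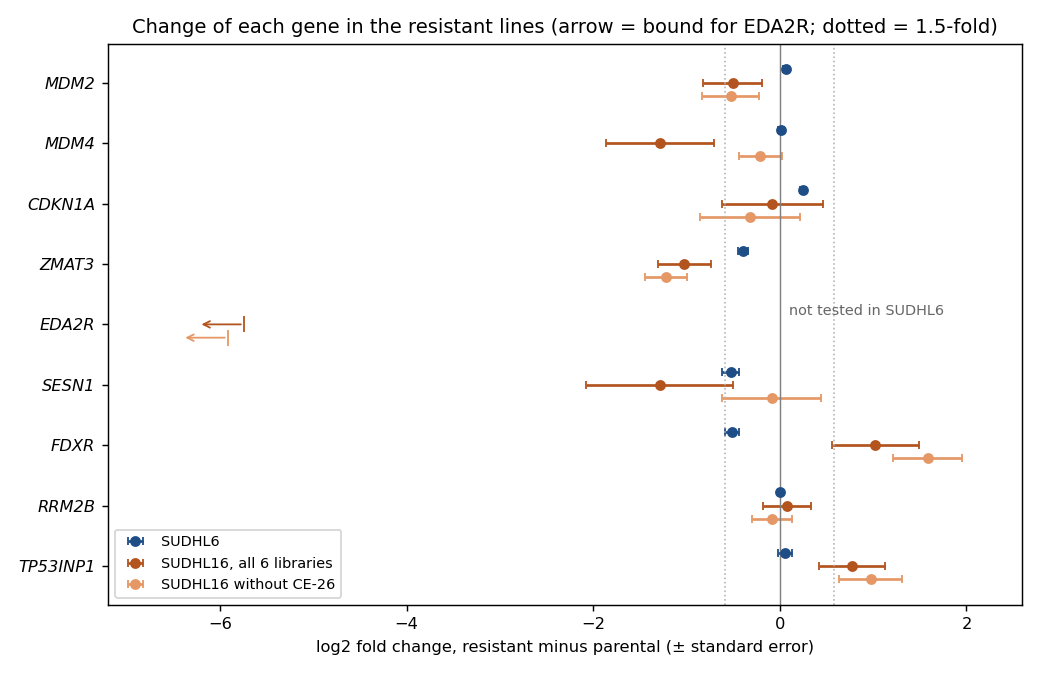
Log2 fold change of each gene, resistant minus parental, with its standard error, in SUDHL6 (blue), in SUDHL16 with all 6 libraries (dark orange) and in SUDHL16 without CE-26 (light orange), with dotted lines at a 1.5-fold change. The arrows for EDA2R start at the bounds of 53.3-fold and 60.1-fold, and MDM4 and SESN1 move towards 0 in SUDHL16 when CE-26 is left out.

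Whether a gene changed differently in the lines was tested by the interaction term of a single edgeR model of the 12 libraries, in which 7.16% of 19621 genes had an adjusted p under 0.05. Of the 9 genes 2 did, FDXR and EDA2R. For FDXR the change in SUDHL16 minus that in SUDHL6 was 1.64 ± 0.44 on the log2 scale (adjusted p = 0.0437), lower in resistant SUDHL6 and higher in resistant SUDHL16, and it was 2.05 (adjusted p = 0.00125) without CE-26. With all libraries the adjusted p for FDXR lay near the threshold. Its passing was kept when CE-26 or CE-29 was left out and lost when any one of the other 10 libraries was. The differences then ranged from 1.40 to 2.05. FDXR also did not pass under upper-quartile scaling. For EDA2R the adjusted p was 0.0117, and 0.0777 when CE-12 was left out. EDA2R entered this fit through the SUDHL16-parental libraries alone, so its passing adds nothing to its counts and these values are a description. The differences for MDM2 (-0.54), MDM4 (-1.19), CDKN1A (-0.34), ZMAT3 (-0.62), SESN1 (-0.55), RRM2B (0.10) and TP53INP1 (0.78) did not pass, with edgeR adjusted p from 0.186 for TP53INP1 to 0.929 for RRM2B. That of ZMAT3 passed without CE-26 (-0.87, adjusted p = 0.0106), and that of TP53INP1 without CE-28 (1.03, adjusted p = 0.0363). CDKN1A rose in SUDHL6 and not in SUDHL16, but the difference of its changes was not shown.

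The order of the genes by level, per kilobase of annotated exon on a scale shared by the 12 libraries, also differed by line. In SUDHL6-parental cells RRM2B was highest with 50.2 ± 0.83 CPM per kilobase (SD, n = 3), followed by CDKN1A with 28 ± 0.58 and MDM2 with 13.8 ± 0.14. In SUDHL16-parental cells MDM4 was highest with 76.1 ± 62.7 CPM per kilobase, a mean carried by CE-26 (148, against 36.3 in the lowest library), and MDM2 followed with 34.8 ± 4.65. MDM4 was also the highest of the 9 in the SUDHL16-resistant cells, with 33.6 ± 4.78 CPM per kilobase. EDA2R and SESN1 were low everywhere, with means of at most 2.09 CPM per kilobase for EDA2R and 1.72 for SESN1. Between the lines, the lowest SUDHL16 library was above the highest SUDHL6 library for MDM2 and MDM4, and the reverse held for CDKN1A and RRM2B. CDKN1A was at 28 and 33.3 CPM per kilobase in SUDHL6-parental and -resistant cells and at 6.64 and 6.41 in the SUDHL16 groups, of which the latter did not differ beyond their spread. For FDXR and TP53INP1 each group overlapped its neighbour in the order of the 4 groups. Per the labels, SUDHL6 RNA went through a NEBNext Ultra II preparation and a HiSeq run and SUDHL16 RNA through an Illumina Stranded Total RNA preparation with RiboZero Plus and a NovaSeq run, so line, kit and instrument cannot be told apart in these levels.

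The protein-coding genes whose log2(CPM + 1), centred on the mean of the 12 libraries, lay closest to that of MDM2 were SNTB2, APAF1 and ZC3H10. Their root mean square distances were 0.103, 0.141 and 0.150, against a median of 0.870 over 13066 genes. SNTB2 had means of 38.1 and 38.9 CPM in SUDHL6-parental and -resistant cells and of 89.1 and 65.7 CPM in SUDHL16. The closest to CDKN1A were MCM3 (0.268), HMGN2 (0.299) and POLH (0.307), against a median of 1.27, and all 3 were several-fold higher in SUDHL6 than in SUDHL16. The points share library, depth and kit, and these distances describe the 12 libraries only.

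Beyond these genes, 44 other p53 targets were followed in lists by function: cell cycle arrest (11 genes), DNA repair (7), cell death (12) and metabolism and other functions (14). In SUDHL6 37 of them were tested, of which 9 were higher and 16 lower at an edgeR adjusted p under 0.05, beside 17.7% and 19.7% of all genes, and 0 were called raised and 4 lowered, beside 4.31% and 4.65%. Their median log2 fold change was -0.023, against -4.34e-05 over all genes. The 4 lowered genes were XPC, BBC3, TIGAR and GLS2. XPC, the damage sensor of nucleotide excision repair, was at 75.1, 81.1 and 75.6 CPM in the parental and 47.5, 47.4 and 48.2 CPM in the resistant libraries (a change of -0.70 ± 0.034 on the log2 scale, adjusted p = 1.00e-08 in edgeR). BBC3, which encodes the BH3-only death protein PUMA, fell from 7.14, 7.82 and 7.94 CPM to 4.60, 4.13 and 4.24 CPM (-0.82 ± 0.10, edgeR adjusted p = 3.73e-05). Each of these genes was lower in all 3 resistant libraries than in any parental one. TIGAR, a phosphatase that diverts glucose from glycolysis, fell from 58.5, 57.8 and 62.2 CPM to 39.2, 38.1 and 39.6 CPM (-0.61 ± 0.037, edgeR adjusted p = 6.69e-08), and its change came under 1.5-fold when CE-9 was left out. GLS2, the liver-type glutaminase, was rare, with 25, 30 and 26 counts in the parental and 8, 12 and 15 in the resistant libraries (-1.31 ± 0.34, edgeR adjusted p = 0.00916).

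In SUDHL16 36 of the 44 were tested, of which 9 had an unadjusted p under 0.05, beside 19.1% of all genes. Of the 36, 3 were called raised and 0 lowered, beside 3.2% and 2.1% of all genes. Their median was 0.053 against -0.015 over all genes, and it was -0.035 under upper-quartile scaling, where the median over all genes was -0.11. The 3 raised genes were NINJ1, PLXNB2 and SESN2, all from the list of metabolism and other functions. NINJ1, a surface protein that ruptures the membrane of dying cells, had 0, 0 and 13 counts in the parental libraries and 585, 598 and 1217 in the resistant ones, or 39.2, 28.1 and 51.8 CPM (edgeR adjusted p = 0.00471). It passed the filter on low counts through the resistant libraries alone, and its adjusted p in edgeR was 3.87e-06 with no filter. PLXNB2, a receptor for semaphorins, rose from 23.8, 29.6 and 46.3 CPM to 162, 135 and 163 CPM (2.2 ± 0.30 on the log2 scale, adjusted p = 0.00498 in edgeR). SESN2, the sestrin that senses leucine and is also induced by the integrated stress response, rose from 25.1, 33.1 and 18.2 CPM to 78.6, 103 and 99.3 CPM (1.90 ± 0.28, edgeR adjusted p = 0.00670). For PLXNB2 and SESN2 no resistant library overlapped a parental one, and they were called in each of the 6 fits that left out a library. The same held for NINJ1, but a gene that enters the test through one group alone had to differ. The calls of NINJ1 therefore add nothing to its counts. DESeq2 called 5 raised and 2 lowered (FBXW7 and BTG2), beside 5.95% raised and 5.35% lowered of all genes. Without CE-26 edgeR called 6 raised and 1 lowered (BTG2, an antiproliferative gene, -1.36, adjusted p = 0.0108), beside 6.73% and 3.32%. The cell death and DNA repair lists held 0 edgeR calls when the 6 SUDHL16 libraries were fitted alone with TMM and the filter, with FAS and CASP1 at an unadjusted p under 0.05. CASP1 was called raised by DESeq2, with library totals (2.37, edgeR adjusted p = 0.0399) and with no filter (2.28, adjusted p = 0.0367). It was also called raised by edgeR without CE-26 (2.97, adjusted p = 0.0103). FAS was called raised in the single edgeR fit of 12 libraries (1.34, adjusted p = 0.0253), which called 8.1% of all genes raised. From the cell death list limma voom called FAS (adjusted p = 0.0174), CASP1 (0.00149) and BBC3 (0.00388) raised. It called TNFRSF10A lowered (-0.74, adjusted p = 0.0276), beside 10.7% of all genes raised and 6.18% lowered. BBC3, lowered in SUDHL6, was at 6.56, 19.98 and 3.48 CPM in the SUDHL16-parental and 24.6, 14.1 and 16.7 CPM in the -resistant libraries, and was called raised without CE-26 (1.89, adjusted p = 0.0256). The interaction of BBC3 did not pass with all libraries (1.89, adjusted p = 0.103) and passed without CE-26 (2.65, adjusted p = 9.64e-04).

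**Figure D4:**
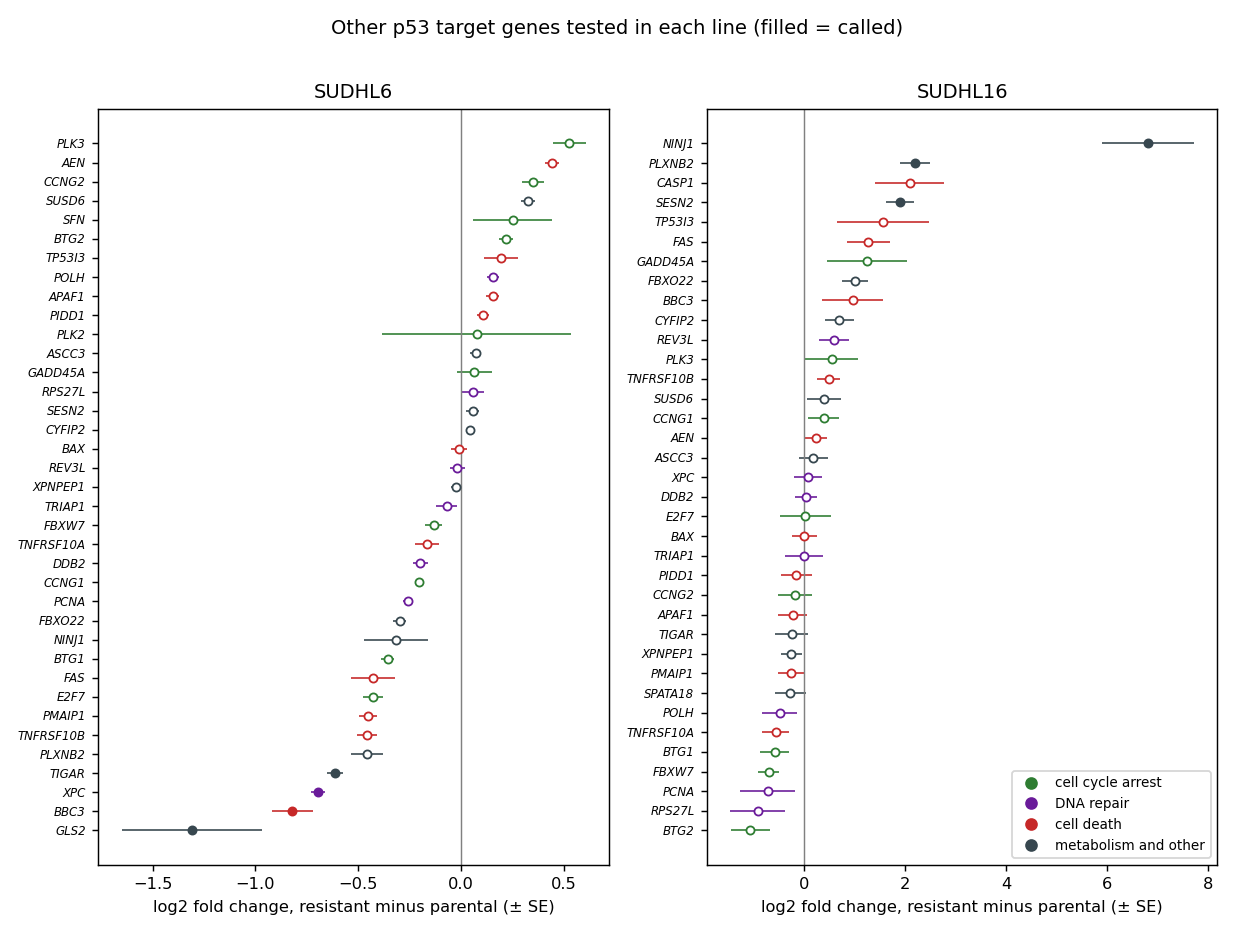
Log2 fold change, resistant minus parental, with its standard error, of the other p53 target genes tested in SUDHL6 (37, left) and SUDHL16 (36, right), coloured by function, filled where called. The 4 filled points in SUDHL6 (TIGAR, XPC, BBC3, GLS2) are all below 0 and the 3 in SUDHL16 (NINJ1, PLXNB2, SESN2) all above 0, and the horizontal scales of the panels differ.

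Upstream of p53, 15 genes that regulate the protein, among them damage kinases, ubiquitin ligases and the acetyltransferase KAT5, were tested in both lines. In SUDHL6 3 were higher (ATM, ATR and COP1) and 5 lower (CHEK1, USP7, RPL5, TRIM28 and HIPK2) at an edgeR adjusted p under 0.05, and HIPK2, a kinase that phosphorylates p53 to favour cell death, was the only call. These counts stand beside 17.7% of all genes higher and 19.7% lower, and 8.96% called. HIPK2 had 6.26, 6.17 and 5.11 CPM in the parental and 3.28, 2.95 and 3.19 CPM in the resistant libraries, without overlap (log2 fold change -0.89 ± 0.12, edgeR adjusted p = 9.58e-05). It lost the call in the single edgeR fit of 12 libraries (-0.90, unadjusted p = 0.285), in which 140 of 19621 genes had an adjusted p under 0.05 for SUDHL6. In SUDHL16 fitted alone edgeR called 0 of the 15, while HIPK2 alone had an unadjusted p under 0.05 (-3.75, adjusted p = 0.141), beside 19.1% of all genes. HIPK2 was called lowered by DESeq2 (adjusted p = 0.00998) and in the edgeR fit of 12 libraries (-3.53, adjusted p = 0.0285), which called 6.45% of all genes lowered, and was at -1.17 (adjusted p = 0.447) without CE-26. Its SUDHL16 levels were 0.716, 15.5 and 1.12 CPM in the parental and 0.402, 0.376 and 0.425 CPM in the resistant libraries, again with the high value in CE-26. The median of these genes was -0.049 in SUDHL6 and -0.12 in SUDHL16.

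Downstream of p21, 15 cell cycle genes that p53 lowers through it were examined beside CDKN1A. In SUDHL6 10 were higher and 4 lower (MKI67, FOXM1, AURKB and MYBL2) at an edgeR adjusted p under 0.05, beside 17.7% and 19.7% of all genes, and 14 had an unadjusted p under 0.05, beside 45.2%. Of these 15, 0 were called by edgeR or DESeq2, and the median was 0.15, in the same line in which CDKN1A was higher. In SUDHL16 their median was -0.029, or 0.067 with library totals and -0.18 without CE-26, and AURKB, a mitotic kinase, was the only call by edgeR with all 6 libraries. With limma voom 1 was called raised and 2 lowered (CDC20 and CCNB2), beside 10.7% and 6.18% of all genes, and edgeR without CE-26 called CDC20 lowered. AURKB had 29.98, 18.6 and 25.8 CPM in the parental and 58.5, 55.9 and 60.5 CPM in the resistant libraries, which did not overlap (log2 fold change 1.22 ± 0.24, edgeR adjusted p = 0.0249). It lost the call with library totals and when any SUDHL16 library other than CE-26 was left out. CDKN1A itself overlapped between the SUDHL16 groups.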

How the data were processed

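RNA from SUDHL6 and SUDHL16 parental and venetoclax-resistant cells was sequenced in 12 libraries. Per the labels and the methods, the authors trimmed reads with Trim Galore, aligned them to GRCh38 with HISAT2 and used StringTie, and they deposited a count of reads per gene, in whole numbers without normalization. The counting tool, its annotation and its strand setting are not given in the sources used here, so overlapping genes may share or split reads. Of 60675 identifiers, 56558 were found in GENCODE release 44, which gave symbols and positions.

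The 9 genes, the other lists and the tests were chosen with earlier results of these data known, and the lists were written from general knowledge. Beside the 9, up to 4 called genes of each list with the smallest adjusted p were named, and for MDM2 and CDKN1A the 3 closest genes. DCN, CD3E and other markers, NDUFAF6, the uncalled genes of the lists and the SUDHL16 values of BBC3 were added after their values were seen.

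Each line was fitted alone with edgeR 4.0.16 in R 4.3.3 (filterByExpr, TMM, two-sided quasi-likelihood test, Benjamini-Hochberg adjustment), and the difference between lines was the interaction term of a joint model. A call needed an adjusted p under 0.05 and a 1.5-fold change. Total counts ran from 4131927 to 40885665, and floors of 3 counts cover counting error only. No libraries held identical counts. Alternatives were DESeq2 1.42.0, limma 3.58.1 voom with quality weights, upper-quartile scaling, library totals, no filter, protein-coding genes only, one fit of all libraries, and each library left out. Where 1 library is left out, a group holds 2. The consensus element was searched in GRCh38. Figures and counts used Python 3.11.15 with pandas 2.3.3 and matplotlib 3.10.9.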

Additional observations from a re-analysis of the deposited data

Results flagged for a closer look

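Of the genes named here by rule, 6 were picked out because their change differed between SUDHL16 and SUDHL6. This was judged by the interaction term of the edgeR fit of all 12 libraries, which 7.16% of all genes passed. The count of 6 cannot be set against that share. NINJ1, PLXNB2, SESN2 and AURKB were named because they were called in SUDHL16, whose libraries enter the interaction. EDA2R entered the fit through the SUDHL16-parental libraries alone. The count is a description. FBXO22 (1.36), TNFRSF10B (0.97) and the B cell marker MME (1.49) also passed. On the log2 scale, the change in SUDHL16 minus the change in SUDHL6 was 1.64 for FDXR, 7.14 for NINJ1, 2.68 for PLXNB2, 1.90 for SESN2 and 1.35 for AURKB. It was -10.90 for EDA2R, a fitted value that depends on the prior count, since EDA2R was at 0 in the SUDHL16-resistant libraries, and is no bound. That of NINJ1 likewise depends on parental counts at or near 0, and was 13.22 without CE-27, the only SUDHL16-parental library with a count. The cell line, the library kit and the sequencing instrument cannot be told apart in these differences.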

How the results depend on the processing

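No paired analysis was possible because the labels carry no replicate numbers. In SUDHL6 the 4 genes with an adjusted p under 0.05 kept that side of the threshold under DESeq2, limma voom, both other scalings, no filter and protein-coding genes only. They also kept it with each library left out. The one fit of all 12 libraries gave 0 of the 9 genes under 0.05 and 0 other p53 targets called in place of 4. It also ended the call of HIPK2 (-0.90, edgeR unadjusted p = 0.285). Over all genes, that fit gave 140 of 19621 under 0.05 for SUDHL6, against 6223 of 16662 when the line was fitted alone. With a library left out, 0 to 1 of the 9 genes were called in SUDHL6. In SUDHL16 EDA2R, which entered the test through the parental libraries alone, had an adjusted p from 2.32e-11 to 0.0188. The number of the 9 genes called there, and equally the number with an adjusted p under 0.05, was 1, and became 2 with DESeq2, upper-quartile scaling or protein-coding genes only, 4 with limma voom or the one fit of 12 libraries, and 1 to 3 with a library left out, where 3 came without CE-26. Of all genes, upper-quartile scaling called 421 raised and 347 lowered of 15708, and protein-coding genes only 541 and 385 of 11567. The shares of the other settings are given below, and the cause was not tested. The other p53 targets called in SUDHL16 numbered 3, and became 7 with DESeq2 (5 raised, 2 lowered) and 5 with library totals or no filter. They numbered 10 with limma voom (7 raised, 3 lowered), 8 in the one fit of 12 libraries (6 raised, 2 lowered), and 3 to 7 with a library left out. Of all genes, edgeR on the 6 libraries called 3.2% raised and 2.1% lowered. These shares were 5.95% and 5.35% with DESeq2, 10.7% and 6.18% with limma voom, and 8.1% and 6.45% in the one fit. Without CE-26 they were 6.73% and 3.32%. Library totals called 516 genes raised and 315 lowered of 15708, and no filter 554 and 344 of 41969. For the difference between the lines, 2 of the 9 genes passed, 1 with upper-quartile scaling, and 0 to 3 with a library left out. Where EDA2R passed it is in these counts, though it entered the fit through the SUDHL16-parental libraries alone.

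The sign turned for values near 0. RRM2B in SUDHL6 became 0.0011 with DESeq2, 0.014 with upper-quartile scaling, 0.0067 with library totals, 0.0022 without the filter and 0.00096 with protein-coding genes only, and ranged from -0.013 to 0.0077 with a library left out. RRM2B in SUDHL16 became -0.0061 with upper-quartile scaling and -0.053 with limma voom, and ranged from -0.085 to 0.27, and its difference between the lines became -0.033 with upper-quartile scaling and ranged from -0.12 to 0.35. CDKN1A in SUDHL16 became 0.0039 without the filter and ranged from -0.65 to 0.36 with a library left out, turning without CE-27 (0.36) or CE-30 (0.32), and its difference between the lines ranged from -0.91 to 0.13. With a library left out, MDM4 in SUDHL6 ranged from -0.015 to 0.047, and the difference of SESN1 from -0.87 to 0.42, turning without CE-26. The cause of these shifts was not tested. Scaling by library totals moved the median over all genes in SUDHL16 from -0.015 to 0.11 and upper-quartile scaling to -0.11, so that changes of that size there carry no direction. The depth of CE-26 and the spread in SUDHL16 limit what that line can show.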

Other observations

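Genes within 1 Mb of each of the 9 were examined as a measure of regional change. Around FDXR in SUDHL16, 25 of 32 tested neighbours were higher in the resistant line. Of these 32, 5 were called raised and 0 lowered, beside 3.2% and 2.1% of all genes. Their median log2 fold change was 0.55, against -0.015 over all genes, and neighbours were not examined without CE-26. In SUDHL6, 21 of 35 neighbours of FDXR were higher, with a median of 0.043 and 0 called, beside 8.96% of all genes. FDXR itself was at -0.51. Around SESN1 in SUDHL16, 3 of 12 neighbours were higher, with a median of -0.37. Around MDM2 in SUDHL6, 0 of 10 neighbours were higher, with a median of -0.12, while MDM2 was at 0.062. EDA2R had 1 tested neighbour, which was at -0.24 in SUDHL16. Copy number was not measured in these data.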
